A study of Mus musculus with 8 samples.

Results

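Lysosome and autophagy genes were followed in the cerebellum of mouse embryos that lack Pals1, the product of Mpp5, which scaffolds the Crumbs polarity complex at the apical membrane. The list held 36 genes chosen by name: membrane proteins, proteases, other hydrolases and cofactors of the lysosome, its transcriptional regulator Tfeb, and core proteins of autophagy. Of these, 35 had a probe on the Illumina BeadArray and 34 were bright enough to be tested, of 16593 genes with a probe and 12912 tested in all. Npc1 was not analysed here, and Gla, which encodes alpha-galactosidase A, was below the filter on brightness (log2 level 6.08 in both groups, against a filter at 6.26). The Pals1 CKO group comprised 4 animals of genotype Pals1 fl/fl;Cre+, in which hGFAP-Cre deletes the gene from most cerebellar neurons and glia. The WT group comprised 4 Pals1 fl/fl;Cre- animals, so that both groups carried the floxed allele. All were taken at embryonic day 17.5, with 1 array for each animal, and cells that hGFAP-Cre does not reach keep an intact Pals1 gene.

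Lysosomes are acidified compartments in which hydrolases break down proteins, glycans and lipids that arrive by endocytosis or by autophagy. In autophagy, a double membrane marked by lipid-linked LC3 and GABARAP proteins encloses cytoplasm and fuses with the lysosome. TFEB and its relatives switch on many genes of both systems by binding the CLEAR motif, an extended E-box, in their promoters. In the brain, inherited loss of several of these proteins causes storage disease, with neurons affected early, and microglia and macrophages are rich in lysosomal enzymes.

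The arrays had median raw intensities between 118.7 and 133.5. Mpp5, the check of the knockout, had a log2 change of -0.87 without overlap of the groups (limma adjusted p = 8.43e-06). Markers of sex were unevenly spread: Xist, made from the inactive X chromosome, read 6.60 to 6.77 on the CKO arrays and 6.83 on WT.3, against 9.71 to 10.10 on WT.1, WT.2 and WT.4. Sex and genotype were thus partly confounded. A fit with the Xist level as a covariate compares the genotypes mostly through WT.3, the only WT array near the CKO level. Changes quoted with that covariate carry this limit throughout. For the marker counts that follow, 9.15% of all genes tested were higher in CKO and 8.64% lower. Markers of microglia were mostly higher in CKO: 11 of 14 tested rose, 0 fell, 2 had a negative change (lowest -0.24), and Itgam was not tested. Their summed normalized intensity was 3840 to 4328 in CKO and 2580 to 2663 in WT, groups that did not overlap, with C1qb and C1qc, complement subunits, up by 0.74 and 0.60 (limma adjusted p = 7.08e-05 and 2.09e-04). Changes of the phagocyte genes Lyz1, Lyz2, Fcgr3 and Aif1 were 1.05, 0.54, 0.73 and 0.63. Lyz1 and Lyz2 are near-identical copies that probes may not separate. Over the alternatives Lyz1 passed throughout, at changes from 0.32 to 1.15. The rise of Fcgr3 was lost without CKO.4, WT.2 or WT.4 (adjusted p up to 0.0734), and with an intensity trend in limma (adjusted p = 0.112). Aif1 was at 0.19 on its second-brightest probe (adjusted p = 0.237), and with the Xist level as a covariate Fcgr3 was at 0.41 (adjusted p = 0.489) and Lyz2 at 0.35 (adjusted p = 0.0934). By contrast Ptprc, the leukocyte antigen CD45, was near the filter (log2 level 6.33 in CKO, 6.27 in WT). None of the 6 meningeal fibroblast markers passed, with 2 at an unadjusted p under 0.05, but CKO.3 stood apart: their summed intensity was 3656 there, against 274 to 523 on the other CKO arrays and 166 to 519 in WT. Granule progenitor markers, of which 5 of 5 tested fell, summed to 2168 to 3545 in CKO and 6808 to 7765 in WT. Purkinje cell markers did not move as one: 4 of 5 rose, by up to 0.90, and 1 fell, with a change of -1.30. They summed to 10880 to 12174 in CKO and 7023 to 7882 in WT. Choroid plexus markers (2 of 5 fell, and 2 had a positive change) summed to 395 to 908 in CKO and 1763 to 2281 in WT. Of the cerebellar markers 5 of 6 fell, and of the endothelial markers 2 of 7 rose. The 1 tested forebrain marker rose by 0.49, at intensities of 109 to 154 in CKO and 74 to 89 in WT. Astroglial markers had 1 fall among 5 tested and oligodendrocyte precursor markers 1 among 4, with 0 rises in either. The part of these cell types in the results on lysosome and autophagy genes was not tested. In whole tissue a lower share of a cell type and less RNA per cell cannot be told apart.

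Most of the lysosome and autophagy genes differed little between the genotypes. Of 34 tested, 3 rose in CKO (Mcoln1, Sqstm1 and Gabarapl1), 1 fell (Npc2) and 30 did not pass the threshold of an adjusted p of 0.05 over all genes in limma. Over all genes tested 9.15% were higher and 8.64% lower, 17.8% in all, against 8.82% and 2.94% of the list. The members were brighter than most genes (median log2 level 9.30, against 7.75 over all genes tested). With only genes above the median probe tested, 14.1% were higher and 13.0% lower. Scaled by array medians instead of by quantiles, the split over all genes was 890 higher and 1326 lower, in place of 1182 and 1115, and 1 member rose and 1 fell. The median log2 change was 0.06 over the members and 0.0075 over all genes, and the median absolute change was 0.10 over the members and 0.11 over all genes. At an unadjusted p under 0.05 there were 10 members, of 34, and 3871 genes, of 12912. CKO and WT arrays did not overlap for 3 members higher in CKO and 1 lower, where 10.9% and 10.2% of all genes (21.2% in all) were so separated. The 95% interval of the change lay within 0.5 log2 on either side of 0 for 31 of 34 members and for 86.6% of all genes; Npc2, Ctsh and Gaa were the exceptions among members.

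The calls of the rises depended on single arrays, while the changes kept their sign: with each array left out in turn, Mcoln1 lay at 0.19 to 0.25, Sqstm1 at 0.20 to 0.27 and Gabarapl1 at 0.22 to 0.35. Leaving out a single array gave between 0 and 5 members higher and between 1 and 2 lower. Without CKO.2, CKO.4, WT.1 or WT.2, 0 rose, and 1 rose without CKO.1 (Mcoln1), WT.3 (Sqstm1) or WT.4 (Atg12, with all 3 rises lost). Without CKO.3, 5 rose (the same 3 with Gaa and Atg12) and 2 fell (Npc2 and Lamp2). With the Xist level as a covariate 0 rose and 2 fell, at 2.81% of all genes higher and 3.33% lower. In that fit the genotype difference rests mostly on WT.3 against the CKO arrays. The fall of Npc2 passed under each of 19 alternatives, which are not all independent. Npc2 has 1 probe, so the mean of a gene's probes repeats its main values.

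**Figure D1:**
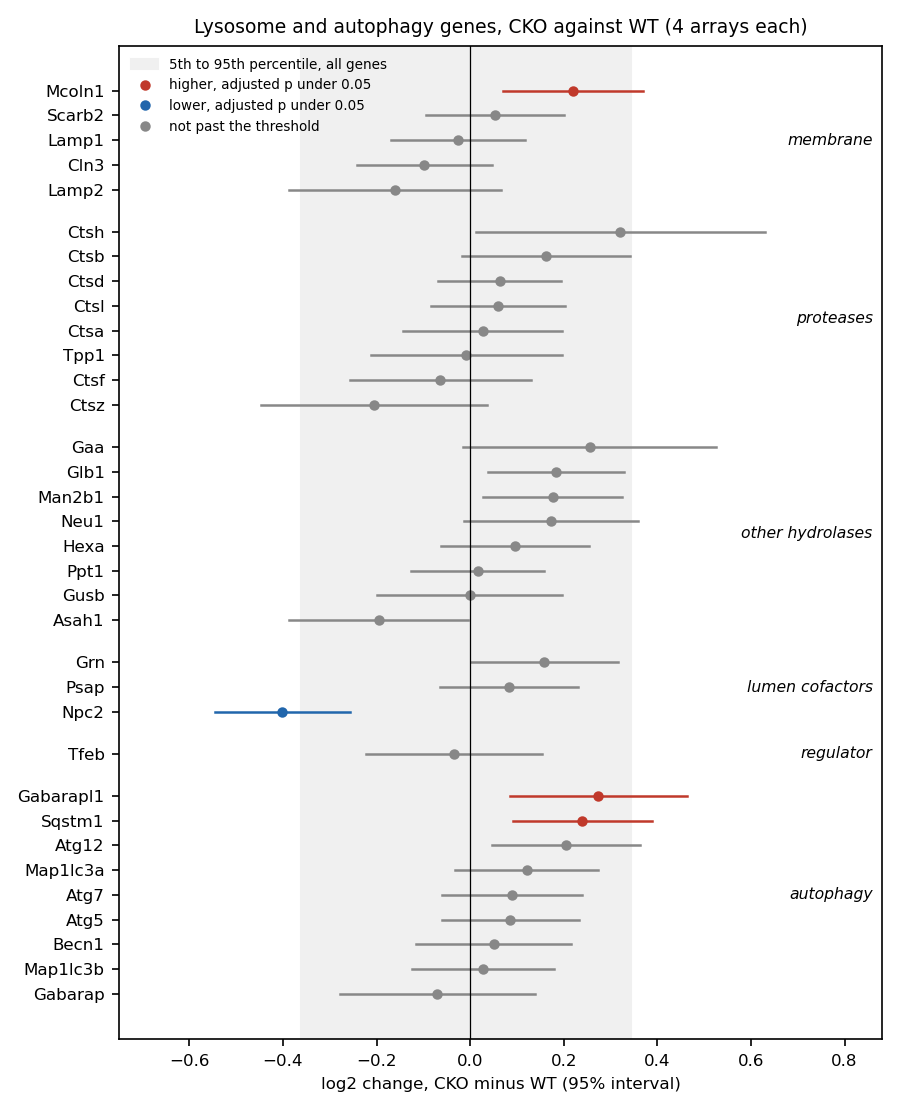
Log2 change of the 34 tested genes in CKO minus WT, with the 95% interval from limma, grouped by role. Most points lie within the grey band from -0.36 to 0.34 that holds the changes of all genes between the 5th and 95th percentile, and Npc2 at -0.40 lies below it.

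Of 5 tested membrane proteins of the lysosome 1 rose and 0 fell (20% and 0%, against 9.15% and 8.64% of all genes). Mcoln1, the calcium channel TRPML1 of the lysosomal membrane, had log2 levels of 8.06, 8.23, 8.11 and 8.26 in CKO.1 to CKO.4, against 7.96, 7.89, 7.94 and 7.99 in WT.1 to WT.4. Every CKO array was above every WT array, by a narrow margin. It rose by 0.22 (SE 0.07, 95% interval 0.07 to 0.37, limma adjusted p = 0.0432), which is 16.5% on this scale. It kept its call with CKO.1 or CKO.3 left out and lost it with each other array left out (adjusted p 0.0574 to 0.123; 0.0306 to 0.270 over all alternatives). Lamp1, the most used marker protein of the lysosomal membrane, read 11.64 ± 0.05 in CKO and 11.67 ± 0.07 in WT (SD, n = 4 each), a change of -0.03 (limma adjusted p = 0.846). Scarb2, which carries glucocerebrosidase to the lysosome, changed by 0.05 and Cln3, the protein lost in juvenile Batten disease, by -0.10, neither past the threshold (limma adjusted p = 0.673 and 0.364).

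Lamp2, the X-linked partner of Lamp1, had log2 levels of 10.50, 10.61, 11.03 and 10.64 in CKO, against 10.99, 10.87, 10.76 and 10.81 in WT. All CKO arrays but CKO.3 were below every WT array. The change was -0.16 (95% interval -0.39 to 0.07, limma adjusted p = 0.342), and -0.27 without CKO.3 (adjusted p = 0.0259). With each other array left out Lamp2 did not pass (adjusted p 0.315 to 0.632). CKO.3 is also the array with high meningeal markers, and their part in the result was not tested.

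Lamp2 has 4 probes, annotated as pairs to different transcripts, and the pairs differed in direction. The brighter pair changed by -0.16 on each probe, the dimmer pair by 0.10 and 0.22, none past the threshold over all probes (limma adjusted p from 0.0841 to 0.451). The mean log2 level of the dimmer pair minus that of the brighter pair was -1.57, -1.70, -1.93 and -1.85 in CKO, against -2.17, -2.09, -1.98 and -2.08 in WT. The groups did not overlap, and WT.3, which shares its low Xist level with the CKO arrays, was the WT array nearest to them. The difference between genotypes was 0.32 on the log2 scale, with an exact two-sided permutation p of 0.0286, the smallest that 70 assignments allow. This comparison was chosen after the probe values were seen. Without any single WT array the exact p was 0.0571, with differences of 0.29 to 0.35. Without any single CKO array the difference was 0.26 to 0.38, the lowest without CKO.1, with an exact p of 0.0286.

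**Figure D2:**
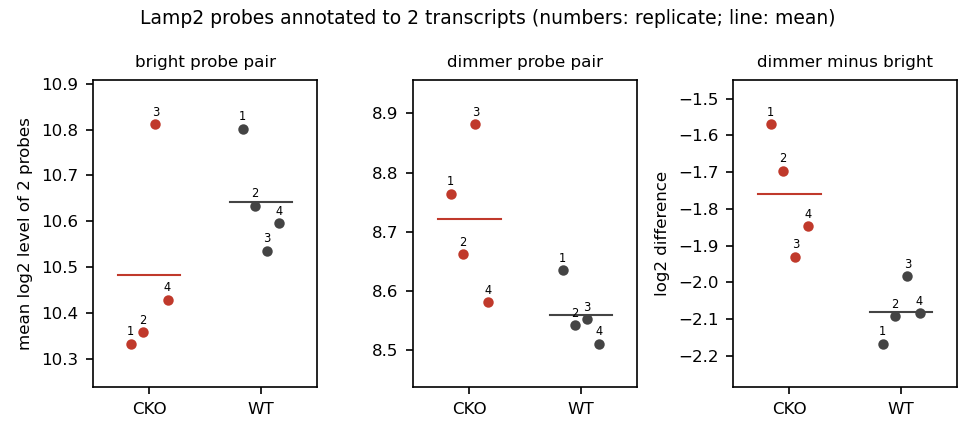
Mean log2 level of each Lamp2 probe pair on each array and the dimmer minus the brighter pair, in CKO and WT. Points are arrays with their replicate number and lines are means. The difference between the pairs was -1.93 to -1.57 in CKO, above the -2.17 to -1.98 of WT.

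Promoters were searched for the E-box, and their sequence was not used to choose the list. Many genes of both systems are already known for the CLEAR motif, so the counts are not independent of the list. Sequence from 250 bases before to 50 after the annotated start was taken from RefSeq (GRCm38.p6) for 29 of the 36 genes. The E-box CACGTG, a palindrome and thus the same on both strands, stood in the promoter of 12 of these 29 genes (41.4%), against 2187 of 27025 genes (8.09%) over the whole table. TCACGTG, the same box with the preceding base of the CLEAR motif and searched on both strands, stood in 9 (31.0%), against 4.29% of all genes, and each of its matches contains a CACGTG. The genes with CACGTG were Lamp1, Cln3, Mcoln1, Ctsa, Ctsd, Ctsf, Ctsl, Gaa, Gla, Glb1, Atg5 and Atg7. The following stretches of 120 bases show the gene with most boxes (Lamp1), another with more than 1 (Cln3), the channel gene that rose (Mcoln1) and the gene that fell (Npc2), with CACGTG in capitals.
Lamp1, chr8:13159041-13159160, plus strand, bases -120 to -1 from the start: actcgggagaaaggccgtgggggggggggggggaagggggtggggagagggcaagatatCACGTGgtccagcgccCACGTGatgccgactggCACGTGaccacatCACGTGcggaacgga
Cln3, chr7:126583326-126583445, minus strand, bases -209 to -90 from 1 of 2 listed starts: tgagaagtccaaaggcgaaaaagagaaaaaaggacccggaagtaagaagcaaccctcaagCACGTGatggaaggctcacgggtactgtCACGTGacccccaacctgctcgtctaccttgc
Mcoln1, chr8:3500399-3500518, plus strand, bases -120 to -1 from the start: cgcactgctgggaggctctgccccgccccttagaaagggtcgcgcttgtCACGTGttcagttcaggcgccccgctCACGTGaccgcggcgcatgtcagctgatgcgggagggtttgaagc
Npc2, chr12:84773113-84773232, minus strand, bases -120 to -1 from the start: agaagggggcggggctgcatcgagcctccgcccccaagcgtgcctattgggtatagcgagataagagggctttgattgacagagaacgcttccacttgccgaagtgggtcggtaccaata
Lamp1 holds 4 boxes within this stretch and Mcoln1 holds 2, while these letters are not in the window of Npc2. Of the members past the threshold, 1 of 4 has the box (Mcoln1), and of the others with a promoter 11 of 25. The median log2 change was 0.06 over the 11 tested members with the box (from -0.10 to 0.26) and 0.03 over the 17 without it (from -0.40 to 0.27).

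Among 8 proteases none rose or fell in limma (against 9.15% and 8.64% of all genes), with 1, Ctsh, at an unadjusted p under 0.05. Ctsh, an aminopeptidase cathepsin, had the largest change of the list upward: log2 levels of 7.75, 8.12, 8.49 and 7.80 in CKO, against 7.55, 7.91, 7.60 and 7.81 in WT. The groups overlapped and CKO.3 was the highest array. The change was 0.32 (95% interval 0.01 to 0.63, limma adjusted p = 0.150), and 0.17 without CKO.3 (adjusted p = 0.324). Ctsb, a cysteine cathepsin, read 12.72, 12.79, 13.08 and 12.80 in CKO, against 12.76, 12.71, 12.64 and 12.64 in WT, again with CKO.3 highest. Its change of 0.16 (limma adjusted p = 0.215) was 0.08 without that array (adjusted p = 0.479). Ctsz, a carboxypeptidase cathepsin, changed by -0.21 with its bright probe and by -0.20 with its other one (limma adjusted p = 0.246 over genes and 0.162 over probes). It was at 8.30 on WT.3 and 7.76 to 7.90 on the other WT arrays, against 7.57 to 7.87 in CKO, and with the Xist covariate the change was -0.58 (adjusted p = 0.0279).

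The remaining proteases did not pass. Ctsd, the main aspartic protease of lysosomes, changed by 0.06 (95% interval -0.07 to 0.20), and Ctsl, a cysteine cathepsin, by 0.06 (-0.08 to 0.20). Tpp1, a tripeptidase lost in late infantile Batten disease, changed by -0.01, Ctsf by -0.06, and Ctsa, which protects neuraminidase and beta-galactosidase, by 0.03. Limma adjusted p for these 5 genes was 0.548 to 0.971.

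**Figure D3:**
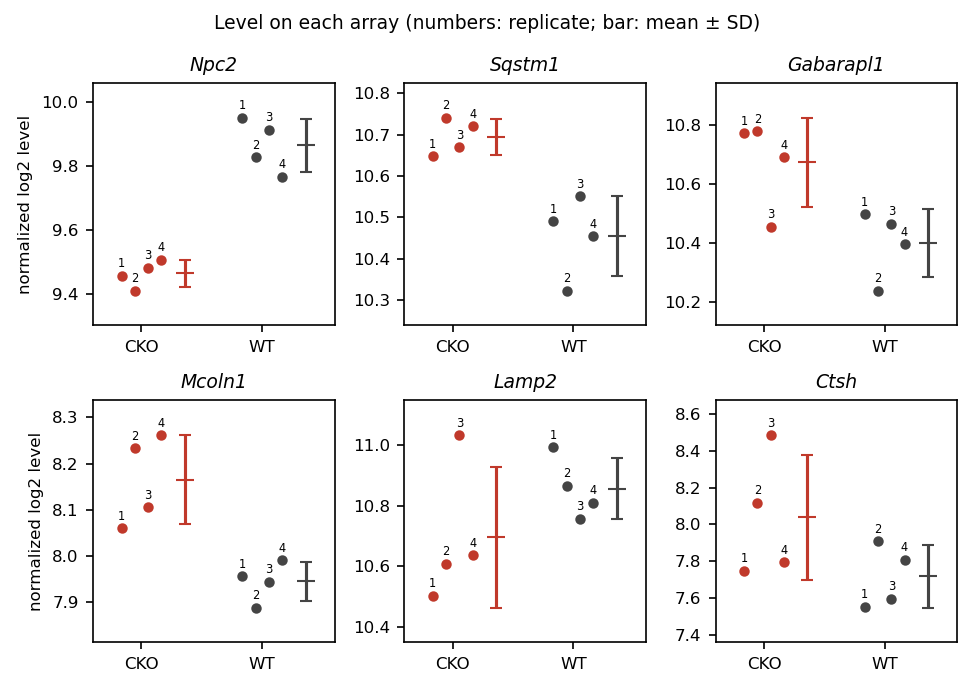
Normalized log2 level of 6 genes on each array in CKO and WT, with the replicate number beside each point and the mean ± SD. Npc2 is lower on all CKO arrays, and Sqstm1 and Mcoln1 are higher on all of them. CKO.3 is the lowest CKO array for Gabarapl1 and the highest for Lamp2 and Ctsh.

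Hydrolases of glycans and lipids gave 0 rises and 0 falls among 8 tested, against 9.15% and 8.64% of all genes. At an unadjusted p under 0.05 were 3 of them (Glb1, Man2b1 and Asah1), and 6 of 8 had a positive change, against 6741 of 12912 genes. Glb1, the beta-galactosidase deficient in GM1 gangliosidosis, averaged 9.93 ± 0.08 in CKO and 9.75 ± 0.05 in WT (SD, n = 4 each). The lowest CKO array, at 9.84, was above every WT array, yet the change of 0.18 missed the threshold (95% interval 0.04 to 0.33, limma adjusted p = 0.0807). Man2b1, an alpha-mannosidase, changed by 0.18 (limma adjusted p = 0.0977) and Neu1, the sialidase, by 0.17 (limma adjusted p = 0.199). Gaa, the acid alpha-glucosidase of Pompe disease, read 9.84, 9.78, 9.42 and 10.15 in CKO, against 9.60, 9.48, 9.42 and 9.69 in WT. CKO.3 was at the level of the lowest WT array, and the change was 0.26 with it (limma adjusted p = 0.194) and 0.38 without it (adjusted p = 0.0157). With each other array left out Gaa did not pass (adjusted p 0.168 to 0.474).

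Asah1, acid ceramidase, leaned the other way. Its log2 levels were 10.90, 10.91, 11.25 and 11.21 in CKO, against 11.21, 11.29, 11.32 and 11.23 in WT, so that CKO.1 and CKO.2 were low and CKO.3 and CKO.4 lay within or at the edge of the WT range. The change was -0.20 (95% interval -0.39 to -0.0040, limma adjusted p = 0.158), and -0.03 on its dimmer tested probe. Hexa, the alpha subunit of hexosaminidase, changed by 0.10, Ppt1, a thioesterase, by 0.02, and Gusb, beta-glucuronidase, by -0.0013 (limma adjusted p = 0.433 to 0.995).

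Npc2 was the member with the clearest difference. It encodes a small cholesterol-binding protein of the lysosomal lumen that hands cholesterol to the membrane protein NPC1. Raw intensities were 751.7, 633.7, 738.9 and 664.2 in CKO, against 1094.9, 986.5, 930.5 and 868.9 in WT. The normalized log2 levels were 9.46, 9.41, 9.48 and 9.51 in CKO and 9.95, 9.83, 9.91 and 9.77 in WT, and every CKO array, CKO.3 included, was below every WT array. The log2 change was -0.40 (SE 0.07, 95% interval from -0.55 to -0.26, limma adjusted p = 0.00136), so that Npc2 fell by 24.3% on this scale. Over the alternatives the change lay between -0.44 and -0.37 and the adjusted p between 6.24e-04 and 0.0375, the highest with the Xist covariate. Of all 12912 genes tested, 542 had a lower change.

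The other lumen cofactors did not pass. Psap, the precursor of the saposins that present lipids to hydrolases, was at 12.75 ± 0.07 in CKO and 12.67 ± 0.07 in WT (SD, n = 4 each; change 0.08, limma adjusted p = 0.472). Grn, progranulin, had a change of 0.16 (95% interval 0.0013 to 0.32, limma adjusted p = 0.163). Tfeb had a dim probe, at 6.51 ± 0.13 in CKO and 6.54 ± 0.14 in WT (SD, n = 4 each), close to the filter. Its change of -0.03 (limma adjusted p = 0.845) says little, because an offset of 50 pulls changes of dim probes towards 0.

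Of the 9 autophagy genes 2 rose and 0 fell (22.2% and 0%, against 9.15% and 8.64% of all genes), and 8 had a positive change, against 6741 of 12912 genes. Their median log2 level was 10.54, and among genes above the median probe 14.1% were higher and 13.0% lower. Sqstm1, the cargo receptor p62 that is itself degraded by autophagy, had log2 levels of 10.65, 10.74, 10.67 and 10.72 in CKO, against 10.49, 10.32, 10.55 and 10.45 in WT. The groups did not overlap. Sqstm1 rose by 0.24 (SE 0.07, 95% interval 0.09 to 0.39, limma adjusted p = 0.0293), or 18.1%. It passed with CKO.3 or WT.3 left out and not with each other array left out (adjusted p 0.0507 to 0.0974; 0.0166 to 0.472 over all alternatives), and with the Xist covariate the change was 0.14 (adjusted p = 0.472).

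Gabarapl1, a GABARAP-family protein that coats forming autophagosomes, read 10.77, 10.78, 10.46 and 10.69 in CKO, against 10.50, 10.24, 10.47 and 10.40 in WT. CKO.3 lay among the WT arrays and the other CKO arrays above them. The rise was 0.27 (SE 0.09, limma adjusted p = 0.0463). Without CKO.3 it was 0.35 (adjusted p = 0.00795), and it did not pass when each other array was left out (adjusted p 0.0535 to 0.144; 0.00795 to 0.437 over all alternatives). Its paralogue Gabarap changed by -0.07 (95% interval -0.28 to 0.14), while Map1lc3a and Map1lc3b, the LC3 proteins, changed by 0.12 and 0.03 (limma adjusted p = 0.282 to 0.848 for these 3).

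Atg12, the ubiquitin-like protein joined to Atg5, was at 11.83, 11.84, 11.70 and 11.88 in CKO, against 11.58, 11.57, 11.52 and 11.75 in WT. Only CKO.3 and WT.4 crossed, and the change of 0.20 (95% interval 0.05 to 0.36) did not pass (limma adjusted p = 0.0728). It passed without CKO.3 (adjusted p = 0.0404) or WT.4 (adjusted p = 0.0349), and not with each other array left out (adjusted p 0.145 to 0.171). Atg5 changed by 0.09, Atg7, the enzyme that activates Atg12 and LC3, by 0.09, and Becn1, of the lipid kinase complex that starts autophagosomes, by 0.05 (limma adjusted p = 0.433 to 0.724). The mean deviation of the autophagy members from the 8-array mean was 0.11, 0.08, -0.01 and 0.06 in CKO and -0.04, -0.09, -0.04 and -0.05 in WT. That of the lysosomal members was -0.03, -0.01, 0.08 and 0.03 in CKO and -0.01, 0.0047, -0.03 and -0.04 in WT, so that CKO.3 was lowest of the CKO arrays in autophagy genes and highest in lysosomal ones.

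**Figure D4:**
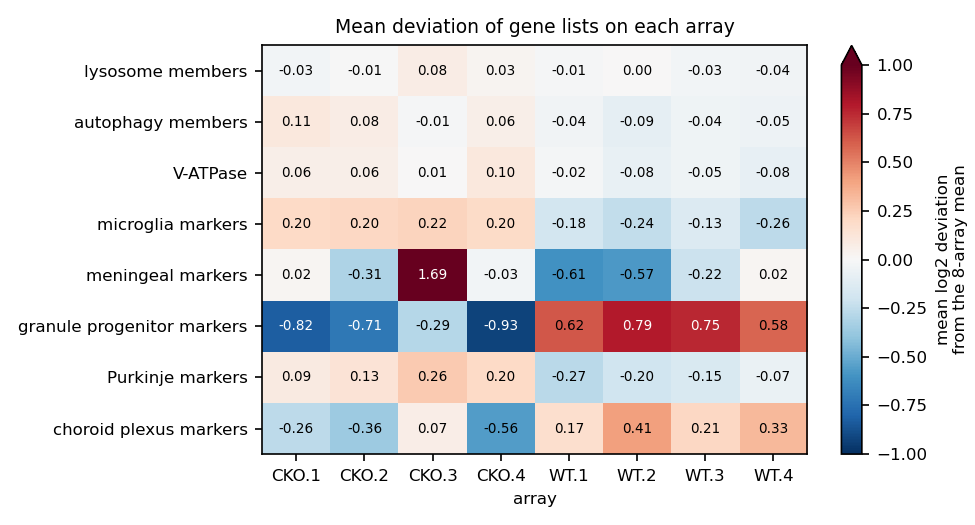
Mean log2 deviation of each list from its 8-array mean on each array, for lysosomal and autophagy members and for marker lists. Lysosomal members stay between -0.04 and 0.08, while microglia markers are at 0.20 to 0.22 in CKO and -0.26 to -0.13 in WT, and meningeal markers reach 1.69 in CKO.3.

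Of 29 tested further lysosomal proteins 5 rose and 2 fell (17.2% and 6.90%, against 9.15% and 8.64% of all genes), with a median log2 change of 0.07, against 0.0075 over all genes. Cd63, a tetraspanin of late endosomes and lysosomes, had log2 levels of 11.32, 11.25, 11.84 and 11.19 in CKO, against 12.55, 12.62, 12.75 and 12.39 in WT. No arrays overlapped and CKO.3 was the highest CKO array. Cd63 fell by 1.18 (95% interval -1.45 to -0.90, limma adjusted p = 1.03e-04), to 0.442 of the WT level, and 29 genes of 12912 had a lower change. With the second-brightest of its probes the change was -0.81 (adjusted p = 7.90e-04), and over all alternatives it lay between -1.35 and -0.81.

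The rises among these were Arsb, a sulfatase (0.41, limma adjusted p = 0.00546), Atp13a2, a transporter of the lysosomal membrane (0.30, limma adjusted p = 0.0218), Ids, the X-linked iduronate sulfatase (0.30, limma adjusted p = 0.0233), Pla2g15, a phospholipase (0.29, limma adjusted p = 0.0164), and Sgsh, the heparan sulfamidase (0.28, limma adjusted p = 0.0144). Ctns, the cystine exporter, fell by 0.22 (limma adjusted p = 0.0440). Pla2g15, Sgsh and Ctns were named after their values were seen. On second-brightest probes Arsb was at -0.02 (adjusted p = 0.928), Ids at 0.21 (adjusted p = 0.155) and Ctns at -0.03 (adjusted p = 0.836). With 1 array left out, Ctns passed for WT.3 alone and Atp13a2 for CKO.3 and WT.4 alone, and Ids did not pass without CKO.1, CKO.4, WT.2 or WT.3 (adjusted p up to 0.137, 0.0644 and 0.0752). With the Xist covariate Cd63 and Arsb passed, while Atp13a2, Ids, Pla2g15 and Sgsh did not, at changes of 0.34, 0.43, 0.42 and 0.32 (adjusted p = 0.0523 to 0.154), and Ctns was at -0.10 (adjusted p = 0.622).

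Subunits of the V-ATPase, the proton pump that acidifies lysosomes and synaptic vesicles, gave 4 rises among 17 tested (23.5%) and 1 fall (5.88%), against 9.15% and 8.64% of all genes. They are bright (median log2 level 11.02, against 7.75 over all genes), and among genes above the median probe the shares were 14.1% and 13.0%. Changes were positive for 13 of 17, against 6741 of 12912 genes, with a median of 0.16. Atp6v1h, a regulatory subunit of the cytosolic domain, read 12.59, 12.68, 12.54 and 12.65 in CKO, against 12.39, 12.29, 12.21 and 12.35 in WT. The groups did not overlap. It rose by 0.30 (SE 0.07, limma adjusted p = 0.00825) and passed under all 19 alternatives. Atp6v0a1, of the membrane domain, rose by 0.27 (limma adjusted p = 0.0157), Atp6v1e1, of the stalk, by 0.26 (limma adjusted p = 0.0144) and Atp6v0b, a proteolipid named after its values were seen, by 0.21 (limma adjusted p = 0.0431). Atp6v0e, a small membrane subunit, fell by 0.35 (limma adjusted p = 0.0236). Atp6v0a1 lost its call without CKO.1, CKO.4 or WT.2, Atp6v1e1 without WT.2, Atp6v0b without each array but WT.3, and Atp6v0e without CKO.2, CKO.4, WT.1, WT.2 or WT.3 (adjusted p up to 0.0533, 0.0513, 0.113 and 0.0762). With the Xist covariate Atp6v0b was at 0.12 (adjusted p = 0.527), Atp6v0a1 at 0.24 (adjusted p = 0.233), Atp6v1e1 at 0.31 (adjusted p = 0.0985) and Atp6v0e at -0.52 (adjusted p = 0.0642), none past the threshold. With median scaling Atp6v1e1 was at 0.17 (adjusted p = 0.122) and Atp6v0b at 0.17 (adjusted p = 0.122).

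Of 10 genes for sorting to the lysosome 2 rose and 1 fell (20% and 10%, against 9.15% and 8.64% of all genes), with a median of 0.01. Gnptab, which makes the mannose 6-phosphate tag of lysosomal enzymes, was at 9.25, 9.16, 9.07 and 9.21 in CKO, against 8.82, 8.71, 8.79 and 8.86 in WT, without overlap. It rose by 0.38 (SE 0.07, limma adjusted p = 0.00219), and the Xist covariate was the alternative, of 19, under which it did not pass (adjusted p = 0.0673). Igf2r, the large receptor for that tag, rose by 0.31 (limma adjusted p = 0.0215) and Cln6, a membrane protein of the endoplasmic reticulum, fell by 0.24 (limma adjusted p = 0.0262). On their second-brightest probes these changes were 0.16 (adjusted p = 0.140) and -0.09 (adjusted p = 0.506). With the Xist covariate Igf2r was at 0.14 (adjusted p = 0.552) and Cln6 at -0.28 (adjusted p = 0.139), and with median scaling Igf2r was at 0.25 (adjusted p = 0.0529). Without single arrays Igf2r kept its call for CKO.2, CKO.3 and WT.3 and Cln6 for CKO.3, WT.1 and WT.4 (adjusted p up to 0.0682 and 0.0815 for the others).

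Of 23 tested further autophagy genes 2 were higher and 2 lower, with a median of -0.01. That is 8.70% each way, near the 9.15% and 8.64% of all genes. Gabarapl2, another GABARAP-family protein, rose by 0.31 (limma adjusted p = 0.0189), but its other probe gave 0.11 (adjusted p = 0.439). Ulk1, the kinase that starts autophagy, rose by 0.21 (limma adjusted p = 0.0492), with 0.22 on its other probe (adjusted p = 0.0844). Bnip3l, a receptor for mitochondria, fell by 0.32 (limma adjusted p = 0.0304), and Atg2a, a lipid transfer protein, fell by 0.31 (limma adjusted p = 0.0349) with its brighter probe and was at 0.02 with the other (adjusted p = 0.903). Each lost its call without some arrays: Gabarapl2 without CKO.1, CKO.2, CKO.4 or WT.3, Ulk1 without any other than CKO.3 and WT.4, Bnip3l without any other than CKO.1, CKO.3 and WT.3, and Atg2a without any other than CKO.1 and WT.3 (adjusted p up to 0.0620, 0.140, 0.101 and 0.114). With the Xist covariate Bnip3l was at -0.07 (adjusted p = 0.795), Atg2a at -0.07 (adjusted p = 0.784), Gabarapl2 at 0.40 (adjusted p = 0.0892) and Ulk1 at 0.27 (adjusted p = 0.166), none past the threshold. Of 10 tested nutrient-sensing and TFE-factor genes 1 rose and 0 fell (10% and 0%, against 9.15% and 8.64% of all genes). The rise was in Rragb, an X-linked GTPase that recruits mTORC1 to lysosomes, by 0.27 (limma adjusted p = 0.0408). Its call was lost without CKO.1, CKO.4, WT.2, WT.3 or WT.4 (adjusted p up to 0.119), and with the Xist covariate (adjusted p = 0.190). Fnip1, a partner of folliculin, changed by 0.24 (limma adjusted p = 0.0912).

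**Figure D5:**
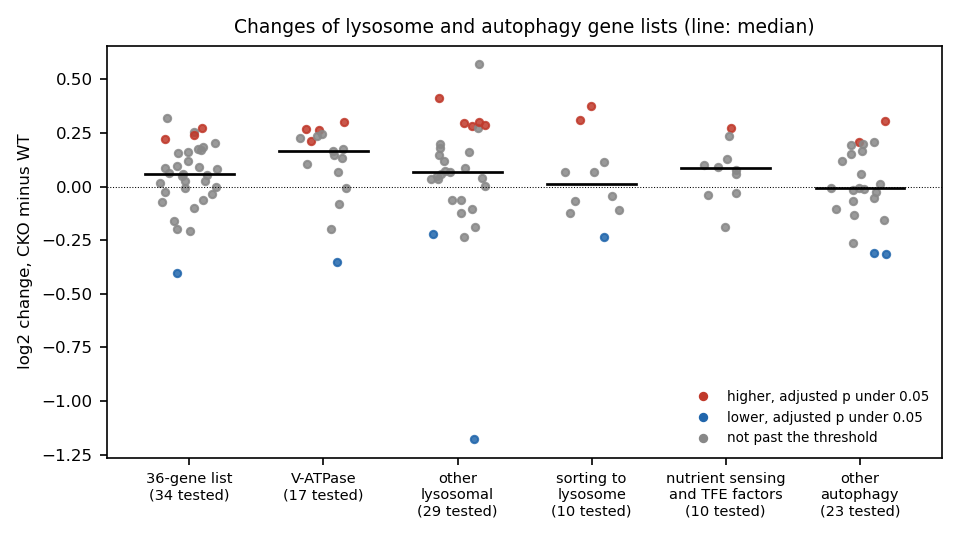
Log2 change in CKO minus WT of each tested gene of the 36-gene list and of 5 further lists, with the median of each list as a line. Medians lie between -0.01 and 0.16, the highest for the V-ATPase, and Cd63 at -1.18 stands apart.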

How the data were processed

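Total RNA of 8 cerebella was amplified into biotin-labelled cRNA and hybridised to Illumina BeadArrays, per the labels' protocols. One deposited table gives linear intensities by probe, exported from BeadStudio per the labels. It has no detection p-values and its array medians differ, so that no normalization between arrays shows. How background was handled is not stated in the labels. The second deposited table holds the authors' log2 values, within 0.0137 of the log2 of the quantile-normalized intensities.

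Symbols for 23978 of 25697 probes came from the platform annotation, and no label names a genome build for the probes. Intensities were corrected by normexp (offset 50), quantile-normalized and taken to log2 with limma 3.58.1 in R 4.3.3. Each gene was read from its brightest probe (mean of all 8 arrays), and entered the test if that mean lay above the 25th percentile of probes (log2 level 6.26). CKO was compared with WT with lmFit and eBayes, genotype as the only term, with Benjamini-Hochberg adjustment over 12912 genes. Adjusted p-values for alternatives come from limma, refitted under each setting over all genes. On simulated data for this comparison (12912 genes, 200 of them changed), 82% of changes of 0.5 log2 and 100% of changes of 1 log2 were recovered, with 7 false calls. The arrays themselves gave 2297 calls. Smaller changes, such as the 0.22 to 0.27 of the members that rose, were not simulated, so their recovery is not known. The number of arrays limits the precision.

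The members and lists were chosen with earlier results of these data known, so no test was made over a list. Named genes were all members, up to 4 genes of each further list past the threshold (the 2 with the smallest p where fewer than 2 passed), and up to 6 microglia markers. Deviations from group means of same-numbered arrays correlated at -0.05 to 0.15. Arrays with different numbers were not examined in this way, so whether the numbers pair the arrays cannot be told. Figures used matplotlib 3.10.9.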

Additional observations from a re-analysis of the deposited data

Results flagged for a closer look

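A single array stood far from the others of its group in 4 of 68 groups of 4 arrays examined for the members, and chance alone marks about 1 in 20. Tpp1 was at a log2 level of 8.003 in WT.4, against 8.30 to 8.34 on the other WT arrays. Neu1 was at 9.892 in WT.4, against 9.58 to 9.63. Map1lc3a was at 10.02 in WT.2, against 10.16 to 10.19. Man2b1 was at 8.782 in CKO.4, against 8.94 to 8.97 on the other CKO arrays. None of these 4 genes passed the threshold.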

How the results depend on the processing

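The count of members higher in CKO, 3, was 0 with a normexp offset of 16 and 1 with median scaling. It was 1 without a filter on dim probes. With the Xist level as a covariate it was 0, in a fit that rests mostly on WT.3 among the WT arrays. The cause was not tested for any of these settings. Leaving out each array in turn gave 0 to 5 higher and 1 to 2 lower. The count lower was 2 with the Xist covariate (Npc2 and Ctsz). The median change of the members, 0.06, was 0.081 with the offset of 16, 0.035 with median scaling and 0.10 with the Xist covariate, and 0.048 to 0.070 with each array left out. No background correction, the authors' log2 values, the filter at the median probe and the intensity trend each gave 3 higher and 1 lower. So did the mean of a gene's probes and the second-brightest probe (an alternative chosen after seeing the data), and array weights gave 4 and 1. For genes with 1 probe, which include all called members, these probe settings repeat the main values and do not test the calls. The authors' log2 values lie within 0.0137 of those without background correction, so those settings are nearly the same. Under the intensity trend the 3 higher were Sqstm1, Gabarapl1 and Atg12, with Mcoln1 lost (adjusted p = 0.0528). With the replicate block, where it is not known whether the numbers pair the arrays, 0 members were higher and 1 lower. Among named genes past the threshold, the sign turned for Arsb (-0.021) and Atg2a (0.019) on their second-brightest probe. Among members not past it, the sign turned under 7 alternatives for Gusb, 5 each for Ctsa and Tpp1, and 4 for Ppt1. It turned under 2 each for Tfeb and Becn1, and 1 each for Lamp1, Lamp2, Psap and Map1lc3b. Over all genes, 1182 higher and 1115 lower became 363 and 430 with the Xist covariate and 782 and 819 without CKO.4, and 1090 and 1057 with the replicate block. Changes of dim probes such as Tfeb and Gla are beyond what these signals resolve.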
